A study of Mus musculus with 32 samples.

Results

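Livers of nuclear-transfer clones were compared between 2 cohorts of mice, 4 Dll1 clones and 4 wildtype (wt) clones, by the difference of their shifts away from conventional mice. The members were all 16 liver arrays of the 32 arrays of the study, 2 for each of the 8 mice. Each array set RNA of 1 clone, in one dye, against an RNA pool in the other dye. The Dll1 clones were set against a pool of conventional mice labelled as Dll1 heterozygotes, and the wt clones against a pool labelled as wildtype. All mice, pools included, were 129/SvJ males aged 18 to 19 weeks. The labels state the genotype of the mutant pool as heterozygous and give the clones only as cloned Dll1 mice, and neither the kind of Dll1 allele nor the donor cells are stated in the labels. The pools limit what the comparison can show: the protocol speaks of 6 control animals and the labels list 4 identifiers, and all 4 mice of a cohort shared 1 pool. The difference therefore compares both clones and both pools, and its spread between mice holds nothing of the variation between pools.

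Dll1, delta-like 1, is a membrane ligand that binds Notch receptors on a neighbouring cell. Binding lets ADAM metalloproteases and gamma-secretase release the intracellular part of the receptor, which joins the DNA-binding protein RBPJ and switches on repressors of the Hes and Hey families. In liver, Notch signalling is known above all for the formation of bile ducts. Nuclear transfer places the nucleus of a body cell in an egg cell without its own nucleus, and the reset of the donor cell's chromatin is known to be incomplete in many clones.

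A value here is a log2 ratio, and each mouse has the mean of its 2 dye-swapped arrays. Ratios below 0 mean a lower level in the clone than in its pool, and a difference above 0 means that the Dll1 clones lay higher relative to their pool than the wt clones did relative to theirs. A difference can therefore stand above 0 while both cohorts lie below their pools. Ratios give no level, so the liver identity of the samples could not be checked from the defining markers of its cells. In these bulk samples a smaller number of cells of one type and less RNA per cell cannot be told apart.

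Array medians lay between -0.06 and 0.03 in the 8 Dll1 arrays and between -0.07 and 0.04 in the 8 wt arrays. Of 20794 probes per array, 59 to 230 had no value in the deposited table. A further 9 to 58 per array held constants in place of a ratio and were set to missing. The number of arrays limits the precision. The 2 arrays of a mouse did not rank the probes alike. Their ratios correlated over probes at -0.20 to -0.03 in Dll1 clones and at -0.71 to -0.25 in wt clones, whereas arrays of different mice with the clone in the same dye correlated at 0.06 to 0.43 and at 0.45 to 0.74. The values were read as already turned to clone over pool on both dyes, and whether the Cy3 arrays had been turned is not settled. The result of each dye is therefore given for the counts, the leading genes, the gene lists described and the genes whose ratios are given by mouse. Elsewhere a difference is that of the mean of both dyes alone, unless the dyes are named. Of the 98 genes chosen by the rule for naming, 48 had a difference of one sign in both dyes. Gene names, too, rest on a correction: each row was named by the probe 11 places earlier, a shift found from these same data. With it, pairs of probes of 1 gene correlated on average at 0.056 over the liver and spleen values of the mice. With the names as given the average was -0.00069.

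**Figure D1:**
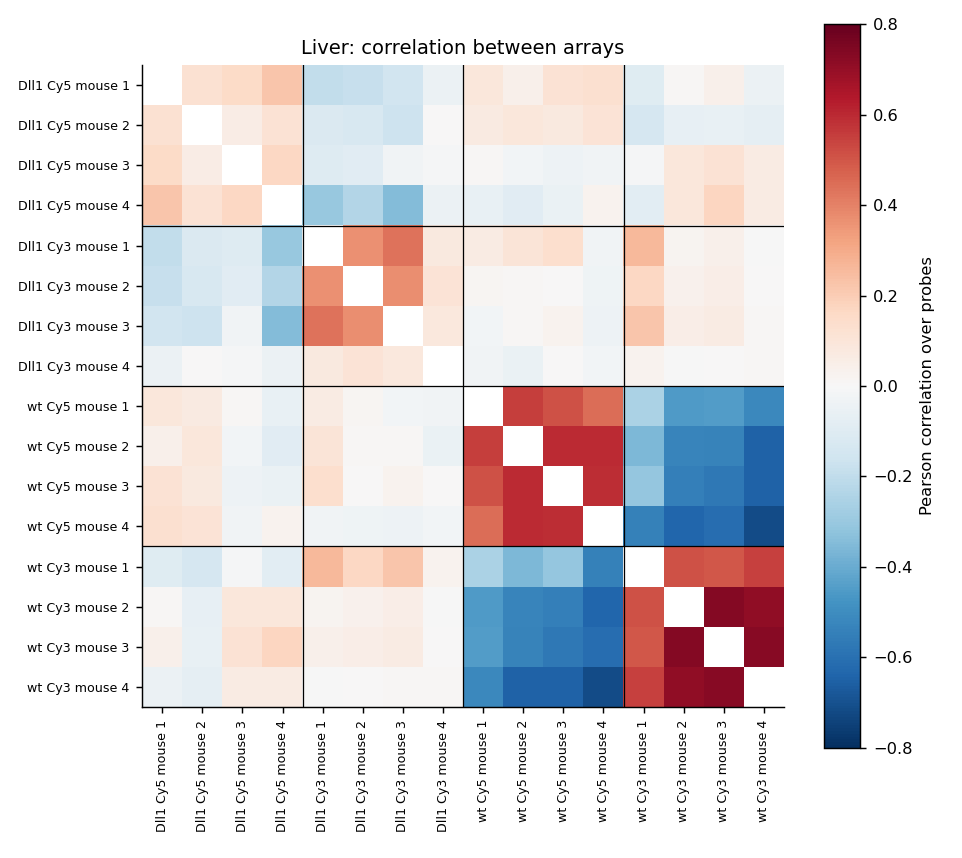
Pearson correlation over probes between the 16 liver arrays, as deposited, with the Dll1 arrays first and, within each cohort, the arrays with the clone in Cy5 before those with it in Cy3 (the diagonal is left blank). In wt clones the arrays of one dye correlate at 0.45 to 0.74 with each other, and those of opposite dyes, from the same or different mice, at -0.71 to -0.25.

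Promoters of 4 genes are shown because 2 pathways of this comparison have a known DNA element near their genes. The chaperone Hspa5 led one of them and Dnajc3, its co-chaperone, lay in the same list. Capitals mark the endoplasmic reticulum (ER) stress element, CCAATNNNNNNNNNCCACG, searched on both strands of the 250 bases before each gene's start (RefSeq, GRCm38.p6). They lie at chr2:34771840-34772089, plus strand, and at chr14:118937682-118937931, plus strand.
Hspa5: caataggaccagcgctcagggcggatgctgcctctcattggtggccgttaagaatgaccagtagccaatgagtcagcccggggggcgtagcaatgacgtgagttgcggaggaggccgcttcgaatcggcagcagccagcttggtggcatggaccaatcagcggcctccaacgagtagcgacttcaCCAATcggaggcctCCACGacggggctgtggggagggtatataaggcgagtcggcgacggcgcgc
Dnajc3: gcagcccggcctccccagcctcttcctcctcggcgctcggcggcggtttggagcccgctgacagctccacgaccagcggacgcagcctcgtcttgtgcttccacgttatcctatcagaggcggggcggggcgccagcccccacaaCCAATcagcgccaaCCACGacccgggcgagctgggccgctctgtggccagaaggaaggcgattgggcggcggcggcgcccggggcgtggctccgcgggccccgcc
The element stood in 37 of 32851 promoters of this length (0.113%) and in 7 of the 23 genes of the ER stress list that had a promoter in the table. For the Notch target genes Hes5 (chr4:154960673-154960922, plus strand) and Hey2 (chr10:30842784-30843033, minus strand), capitals mark the RBPJ motif GTGGGAA or its reverse complement.
Hes5: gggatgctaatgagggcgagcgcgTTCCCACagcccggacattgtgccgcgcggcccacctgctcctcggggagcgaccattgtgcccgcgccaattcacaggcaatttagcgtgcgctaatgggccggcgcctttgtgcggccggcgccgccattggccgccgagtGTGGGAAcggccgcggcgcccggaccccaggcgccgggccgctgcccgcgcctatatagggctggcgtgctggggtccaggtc
Hey2: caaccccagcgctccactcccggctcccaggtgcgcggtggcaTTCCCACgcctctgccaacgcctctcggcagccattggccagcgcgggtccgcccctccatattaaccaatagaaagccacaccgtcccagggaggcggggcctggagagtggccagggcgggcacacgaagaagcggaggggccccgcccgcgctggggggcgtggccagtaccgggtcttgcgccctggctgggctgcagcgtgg
This shorter motif stood in 1779 of the 32851 promoters (5.42%) and in 3 of the 9 Notch target genes with a promoter, Hes5, Hes7 and Hey2. Each motif was searched for its own list, overlap between the motifs was not examined, and a match describes the sequence only.

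With the arrays read as deposited, the 2 cohorts stood at similar distances from their pools for most genes. Of 16900 features, 97.4% differed by less than 0.25 on the log2 scale, 67 by more than 0.5 and 7 by more than 1. No feature passed limma's test at an adjusted p under 0.05 (0% of the 16900 in either direction), and the smallest adjusted p was 0.934. With the Cy3 arrays turned in sign 7103 features passed, as described with the dyes. At an unadjusted p under 0.05 there were 290 features higher (1.72%) and 534 lower (3.16%) in Dll1 clones, together 4.88%. The excess of lower calls went with the position of the arrays: with each array centred on its median there were 352 higher and 379 lower, and with arrays also scaled to one spread 381 and 375.

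The spread between mice of the dye means was small for most features. It holds no variation between pools and no disagreement between dyes. The median SE of a difference was 0.074, its 95% interval reached a median of 0.165 to either side, and the interval lay within -0.5 and 0.5 for 95.5% of the features. In these dye means as deposited the Dll1 clones varied more among themselves. The SD between mice had a median of 0.109 in Dll1 clones and 0.0862 in wt clones, and the SD was larger in Dll1 clones for 64.3% of the features. The SD was not compared within each dye or with the Cy3 arrays turned. The mean correlation over features between mice was 0.052 among Dll1 clones and 0.16 among wt clones, against 0.093 between mice of different cohorts.

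**Figure D2:**
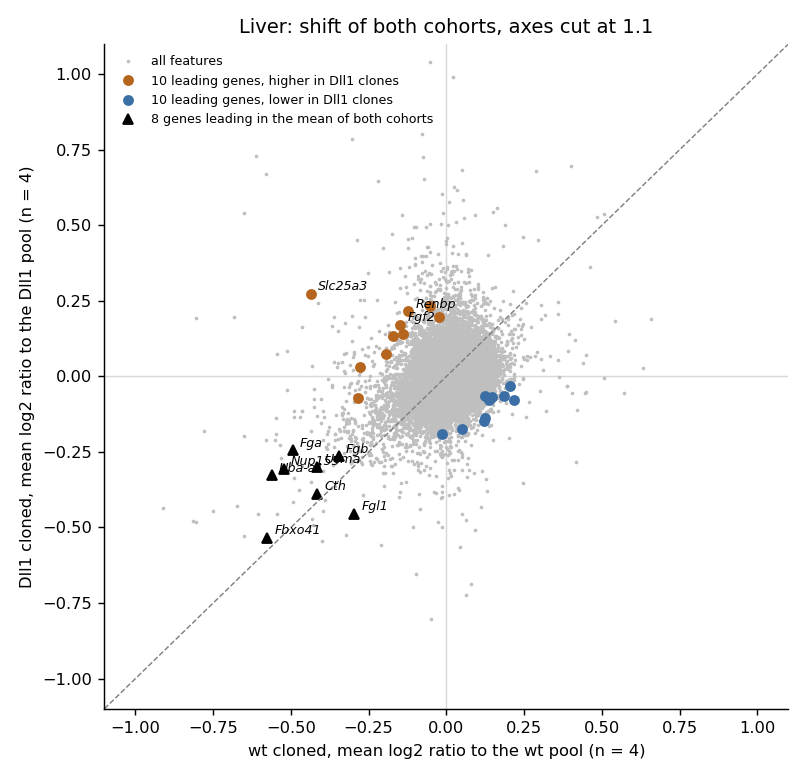
Mean log2 ratio of each of the 16900 liver features in Dll1 clones (vertical) and wt clones (horizontal), 4 mice each, with the line of equal shift dashed and 4 features beyond the axes. The leading genes lie off the line on either side, and the 8 genes with the strongest mean of both cohorts all lie below 0 on both axes, from -0.58 to -0.24.

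Dll1 itself differed little between the cohorts relative to its spread. It had log2 ratios of 0.10, 0.086, -0.51 and 0.021 in the 4 Dll1 clones, against 0.091, -0.26, -0.55 and -0.89 in the 4 wt clones. One Dll1 clone, mouse 3 at -0.51, fell among the wt values, and one wt clone at 0.09 among the Dll1 values, so that the groups overlapped. The means were -0.075 ± 0.29 in Dll1 clones and -0.40 ± 0.42 in wt clones (SD, n = 4 mice each), and the difference was 0.33 (SE 0.20, 95% interval -0.12 to 0.78, limma adjusted p = 0.934). As clone and pool are both labelled Dll1, or both wildtype, the ratio does not check the labels. The interval included 0. Its 2 probes gave differences of 0.037 and 0.62.

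The 10 named genes with the smallest p among those higher in Dll1 clones had varied known functions, and the lowest Dll1 clone lay above the highest wt clone in each. Over all features measured in the 8 mice, 155 of 16708 separated the cohorts in this direction (0.928%), and 561 in either direction (3.36%). The genes were chosen here for small p, so that their separation describes the choice. Their differences were 0.21 to 0.71, with SEs of 0.057 to 0.15, and none passed the adjusted test.

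Renbp, which encodes an N-acetylglucosamine epimerase that binds renin, had the smallest p of all features (unadjusted p = 0.00035). It had ratios of 0.12, 0.34, 0.23 and 0.17 in the 4 Dll1 clones, against -0.21, -0.13, -0.098 and -0.052 in the 4 wt clones. Every Dll1 clone lay above its pool and every wt clone below. The difference was 0.34 (SE 0.064, 95% interval 0.20 to 0.48, limma adjusted p = 0.934), but it came from 1 of 2 probes, which gave 0.66 and 0.018. Slc25a3, the carrier that brings phosphate into mitochondria for ATP synthesis, had the largest difference of the 20 leading genes. Its ratios were -0.14, 0.16, 0.68 and 0.39 in the 4 Dll1 clones, against -0.53, -0.31, -0.58 and -0.33 in the 4 wt clones. The wt clones were all well below their pool, and the Dll1 clones spread widely around theirs. The difference was 0.71 (SE 0.15, 95% interval 0.37 to 1.05, limma adjusted p = 0.934).

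Fgf2, a fibroblast growth factor, had ratios of 0.12, 0.084, 0.18 and 0.30 in the 4 Dll1 clones, against -0.064, -0.16, -0.29 and -0.077 in the 4 wt clones. All Dll1 clones were higher than their pool and all wt clones lower, with a difference of 0.32 (SE 0.072, 95% interval 0.16 to 0.48, limma adjusted p = 0.934). Hspa5, the main chaperone of the endoplasmic reticulum (also known as BiP), had ratios of -0.0080, 0.11, -0.12 and 0.13 in the 4 Dll1 clones, against -0.40, -0.16, -0.34 and -0.20 in the 4 wt clones. Here the separation lay in the wt clones, all below their pool, while the Dll1 clones stood on both sides of 0. The difference was 0.31 (SE 0.078, 95% interval 0.13 to 0.48, limma adjusted p = 0.934). Actb, cytoplasmic beta-actin, had ratios of -0.060, -0.019, -0.16 and -0.050 in the 4 Dll1 clones, against -0.28, -0.21, -0.35 and -0.30 in the 4 wt clones. All 8 clones were below their pools, the wt clones further, and the difference was 0.21 (SE 0.057, 95% interval 0.086 to 0.34, limma adjusted p = 0.934). 

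Aspn, a small leucine-rich protein of the matrix, differed by 0.30 ± 0.079, with all Dll1 clones above 0 and all wt clones below. Myh11, the myosin heavy chain of smooth muscle, differed by 0.27 ± 0.074. Ift20, a protein of transport within cilia, differed by 0.29 ± 0.077, and Zcchc7, a zinc-knuckle protein, by 0.28 ± 0.076 (SE). Ptpn5, a tyrosine phosphatase best known from neurons, differed by 0.22 ± 0.058 (SE), with 1 probe at 0.50 and the other at -0.051.

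The 10 leading genes lower in Dll1 clones had smaller and more even differences, from -0.30 to -0.18 with SEs of 0.049 to 0.076. Each rested on 1 probe. In this direction 406 of 16708 features separated the cohorts (2.43%). None of the 10 passed, and most had Dll1 clones slightly below and wt clones slightly above their pools.

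P4ha2, a subunit of the prolyl hydroxylase that modifies collagen, had ratios of -0.12, -0.22, -0.092 and -0.11 in the 4 Dll1 clones, against 0.050, 0.25, 0.10 and 0.091 in the 4 wt clones. The signs were opposite in all mice, and the difference was -0.26 (SE 0.062, 95% interval -0.40 to -0.12, limma adjusted p = 0.934). Tsfm, the elongation factor Ts of mitochondrial translation, had ratios of -0.060, -0.16, -0.20 and -0.17 in the 4 Dll1 clones, against 0.015, 0.26, 0.085 and 0.12 in the 4 wt clones. Again the cohorts lay on opposite sides of 0, with a difference of -0.27 (SE 0.066, 95% interval -0.41 to -0.12, limma adjusted p = 0.934). Inpp5f, a phosphoinositide phosphatase, had the largest difference of this group. Its ratios were -0.14, 0.0010, -0.017 and -0.16 in the 4 Dll1 clones, against 0.29, 0.36, 0.16 and 0.060 in the 4 wt clones. The wt clones spread from near 0 to well above their pool, and the difference was -0.30 (SE 0.076, 95% interval -0.47 to -0.13, limma adjusted p = 0.934).

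Glis3, a zinc finger transcription factor of thyroid and pancreatic islets, had tightly grouped values. It had ratios of -0.19, -0.16, -0.23 and -0.18 in the 4 Dll1 clones, against -0.030, -0.021, 0.013 and -0.015 in the 4 wt clones. The Dll1 clones lay below their pool and the wt clones near 0, and the difference was -0.18 (SE 0.049, 95% interval -0.28 to -0.068, limma adjusted p = 0.934). Lce1i, a protein of the cornified envelope of skin, differed by -0.23 ± 0.052, and Pitpnb, a phosphatidylinositol transfer protein, by -0.24 ± 0.059 (SE). The cation channel Trpv2 differed by -0.19 ± 0.049 and the serotonin transporter Slc6a4 by -0.25 ± 0.067 (SE). Anapc4, a subunit of the anaphase-promoting complex, differed by -0.21 ± 0.058, and the zinc finger gene Zkscan8 by -0.22 ± 0.059 (SE).

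**Figure D3:**
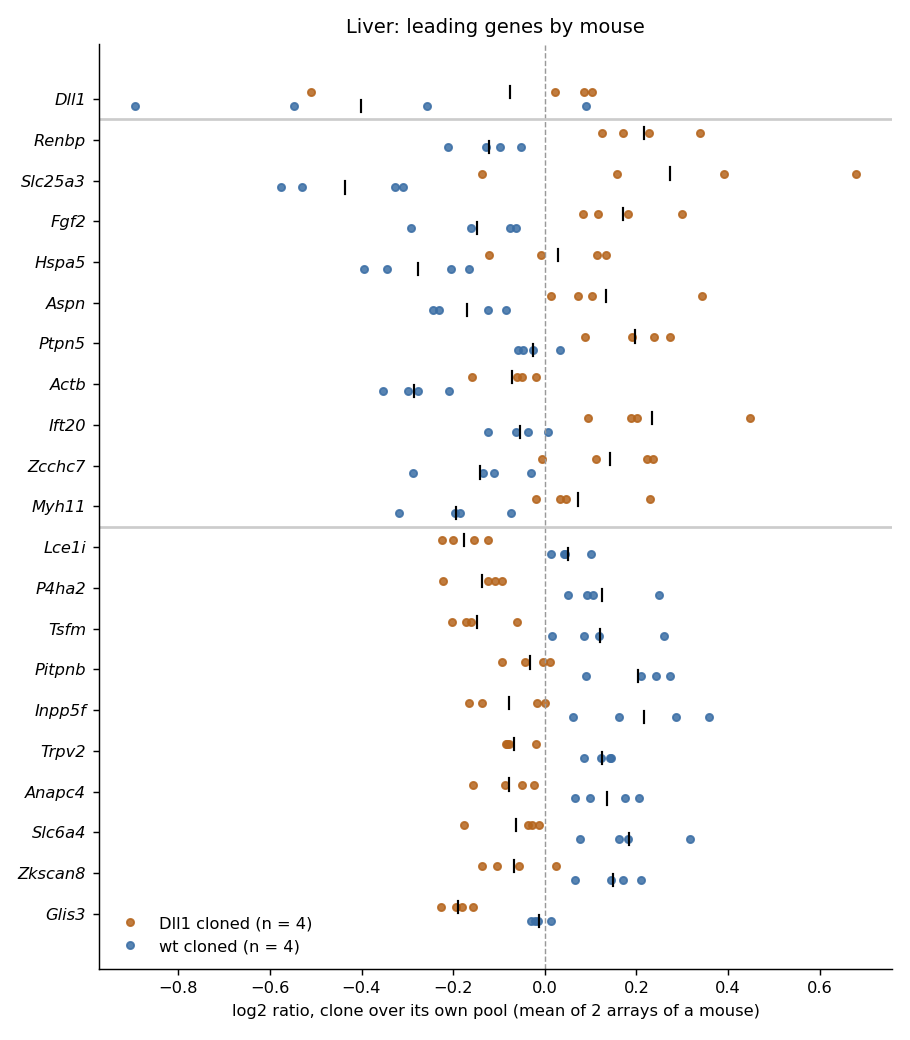
Log2 ratio of clone over pool for Dll1 and the 20 leading genes in each mouse (points, mean of 2 arrays) with the mean of each cohort as a black tick, Dll1 clones drawn above wt clones. The cohorts overlap for Dll1 and for none of the 20 genes, which were chosen by their p.

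The difference depended strongly on the dye. With the clone in Cy5 alone 3162 features passed the adjusted test (1958 higher, 1204 lower), and with the clone in Cy3 alone 3916 did (1518 higher, 2398 lower). The differences of both dyes ran against each other over the 16900 features (Pearson r = -0.73, Spearman rho = -0.75, across features, which are not independent), and 19.6% had one sign in both. With the Cy3 arrays turned in sign before averaging, 7103 features passed (3542 higher, 3561 lower), against 0 as deposited. Neighbouring rows of the table carried related values: rows 2 apart correlated by rank at 0.37 in the turned difference and at 0.12 in the difference as deposited. Probes of 1 gene, at 4990 pairs, correlated at -0.020 in the turned difference and at 0.0071 as deposited. After subtracting a running median along the rows, 3923 features passed with the Cy3 arrays turned and 0 as deposited. That correction was chosen after seeing the data, and the part of row position and dye in either count was not tested further.

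Of the 20 leading genes, 14 had one sign in both dyes, 9 of the 10 higher genes and 5 of the 10 lower. A small p in the mean of both dyes favours genes whose dyes agree, so this count describes the choice: among all 824 features with an unadjusted p under 0.05 it was 404 (49%), against the 19.6% over all features. Slc25a3 differed by 0.38 in the Cy5 arrays and 1.04 in the Cy3 arrays. Fgf2 differed by 0.38 in the Cy5 arrays and 0.26 in the Cy3 arrays, and Hspa5 by 0.21 in the Cy5 arrays and 0.40 in the Cy3 arrays. Among the lower genes, Lce1i was the most even, at -0.20 in the Cy5 arrays and -0.25 in the Cy3 arrays. P4ha2 had opposite signs, at 0.31 in the Cy5 arrays and -0.83 in the Cy3 arrays, and so did Slc6a4, at 0.12 in the Cy5 arrays and -0.61 in the Cy3 arrays. Glis3 stood at -0.50 in the Cy5 arrays and 0.14 in the Cy3 arrays. Dll1 differed by 0.49 in the Cy5 arrays and 0.17 in the Cy3 arrays.

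The other higher genes lay above 0 in both dyes apart from Myh11, at 0.55 in the Cy5 arrays and -0.014 in the Cy3 arrays. Renbp differed by 0.23 in the Cy5 arrays and 0.45 in the Cy3 arrays, Aspn by 0.34 in the Cy5 arrays and 0.27 in the Cy3 arrays, and Actb by 0.36 in the Cy5 arrays and 0.070 in the Cy3 arrays. Ift20 differed by 0.16 and 0.42 in Cy5 and Cy3 arrays, Zcchc7 by 0.22 and 0.35, and Ptpn5 by 0.26 and 0.19. The other lower genes with one sign were Tsfm at -0.14 and -0.40 in Cy5 and Cy3 arrays, Inpp5f at -0.45 and -0.14, Anapc4 at -0.12 and -0.31 and Zkscan8 at -0.27 and -0.16. Pitpnb stood at 0.15 and -0.62 and Trpv2 at -0.44 and 0.056, with opposite signs.

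**Figure D4:**
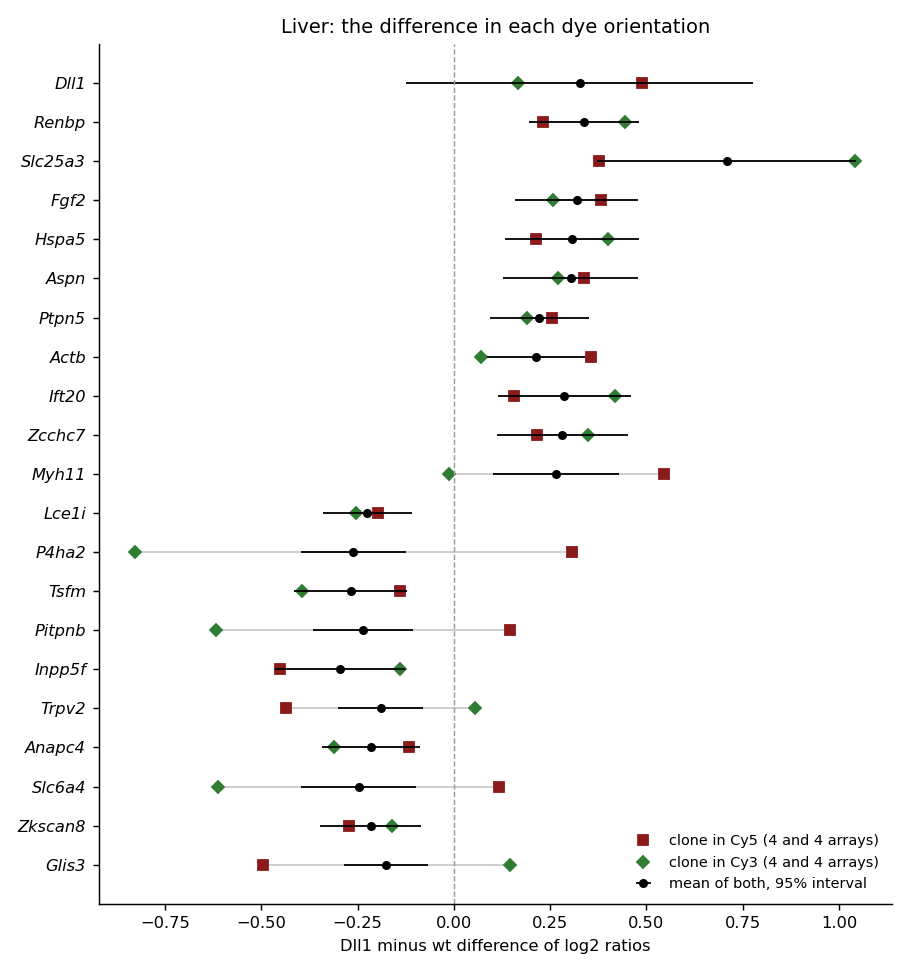
Dll1 minus wt difference of log2 ratios for Dll1 and the 20 leading genes, from the 8 arrays with the clone in Cy5 (squares), the 8 with it in Cy3 (diamonds) and their mean with its 95% interval (black). Slc25a3, Fgf2 and Hspa5 lie above 0 in both dyes, and P4ha2 and Slc6a4 have opposite signs.

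The spleens of the same 8 mice gave no call either, with 0 of 15603 features passing (0%). Of the 20 leading liver genes 17 were measured there, and 9 had the sign they had in liver. Fgf2 differed by 0.25 ± 0.31 in spleen and Lce1i by -0.20 ± 0.22, both in the direction seen in liver. Zcchc7 stood at -0.74 ± 0.18 and Aspn at -0.70 ± 0.40 (SE), opposite to liver. For these 4 genes the SE in spleen was larger than that in liver.

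Among the Notch genes, none passed and none had an unadjusted p under 0.05 except Pofut1. Over all features 824 of 16900 had such a p (4.88%). Of the ligands and receptors, 10 of 12 listed genes were measured, 8 lay above 0, and their median difference was 0.087, whereas 7587 of 16900 features lay above 0 with a median of -0.011. The list median was 0.038 without Dll1 mouse 4. Dll3, a relative of the ligands that stays inside the cell, had ratios of 0.70, 1.21 and 1.21 in 3 Dll1 clones, against -1.41, 1.04 and 0.21 in 3 wt clones. Its wt values spread over more than the whole difference of 1.09 ± 0.52 (SE), and mouse 2 of each cohort had no value. By dye it stood at 0.13 in the Cy5 arrays and 2.06 in the Cy3 arrays. Dner, a Notch ligand known from neurons, had ratios of 0.025, 0.060, 0.32 and 0.12 in the 4 Dll1 clones, against -0.055, 0.11, -0.070 and -0.097 in the 4 wt clones, and the groups overlapped. Its difference was 0.16 ± 0.078 (SE), and it stood at 0.28 in the Cy5 arrays and 0.046 in the Cy3 arrays.

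Jag1, the ligand best known from bile duct formation, differed by 0.065 ± 0.092, its relative Jag2 by 0.073 ± 0.085, and Dlk1, a delta-like protein of fetal liver, by 0.066 ± 0.058 (SE). The receptors Notch2 and Notch3 stood at 0.14 ± 0.12 and 0.10 ± 0.081 (SE). Notch1 stood at -0.056 ± 0.059 and Notch4 at -0.026 ± 0.066 (SE), the 2 members below 0. In all of these the cohorts overlapped, and every interval included 0. The intervals were -0.14 to 0.27 for Jag1, -0.12 to 0.26 for Jag2 and -0.063 to 0.20 for Dlk1. They were -0.12 to 0.40 for Notch2, -0.080 to 0.28 for Notch3, -0.19 to 0.076 for Notch1 and -0.17 to 0.12 for Notch4.

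The Notch targets had a median difference of 0.069, with 11 of 13 measured genes above 0 of 17 listed. Sox9, a transcription factor of bile duct cells, had ratios of 0.051, 0.083, 0.066 and 0.036 in the 4 Dll1 clones, against -0.049, -0.0065, -0.074 and -0.047 in the 4 wt clones. It was the single target whose cohorts did not overlap, and over all features 561 of 16708 separated the cohorts in either direction (3.36%). The 2 Sox9 probes disagreed, at 0.30 and -0.096. The difference was 0.10 (SE 0.049, 95% interval -0.0053 to 0.21, limma adjusted p = 0.934), at 0.15 in the Cy5 arrays and 0.058 in the Cy3 arrays. Hey2, whose promoter is shown above, had ratios of -0.14, -0.052, -0.27 and 0.97 in the 4 Dll1 clones, against -0.41, 0.044, -0.35 and -0.26 in the 4 wt clones. One Dll1 clone, mouse 4 at 0.97, stood far above the other 7 mice, and the difference was 0.37 ± 0.24 (SE), at 0.027 in the Cy5 arrays and 0.57 in the Cy3 arrays. Another Hey2 probe, not used in the mean of both dyes, stood at 0.33 ± 0.14 (SE).

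Hes1, the repressor most used as a readout of Notch signalling, had ratios of -0.0035, -0.035, -0.086 and 0.30 in the 4 Dll1 clones, against -0.15, -0.070, -0.034 and -0.0085 in the 4 wt clones, and differed by 0.11 ± 0.086 (SE), at 0.30 in the Cy5 arrays and -0.074 in the Cy3 arrays. Its groups overlapped, and mouse 4 was again the highest Dll1 clone. Hes5 differed by 0.067 ± 0.15 and Hes7 by 0.10 ± 0.10 (SE). Promoters of 7 of the 13 measured targets were searched for the RBPJ motif, and those of Hes1, Hey1 and Sox9 were not. The 3 genes with the motif lay above 0, as did 11 of all 13 targets. Hey1 stood at 0 to 2 decimals, with an SE of 0.093, and Hes2, Hes3 and Hes6 at 0.069, 0.037 and -0.014. Il2ra and Myc, targets known from lymphoid cells, differed by 0.19 ± 0.12 and 0.095 ± 0.084 (SE), Nfkb2 by 0.054 ± 0.060 and the cell cycle inhibitor Cdkn1a by -0.055 ± 0.093 (SE). Another Nfkb2 probe, not used in the mean of both dyes, stood at -0.20 ± 0.37 (SE), opposite in sign.

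Of the genes that process or relay the Notch signal, 4 of 21 measured lay above 0, with a median of -0.066. Pofut1, which adds the O-linked fucose that receptors need, had ratios of -0.051, -0.16, -0.15 and 0.025 in the 4 Dll1 clones, against 0.11, -0.038, 0.064 and 0.15 in the 4 wt clones. The groups overlapped, and the difference was -0.16 (SE 0.066, 95% interval -0.30 to -0.0099, limma adjusted p = 0.934), at -0.30 in the Cy5 arrays and -0.011 in the Cy3 arrays. By dye, the ligands and receptors had medians of 0.12 in Cy5 and 0.12 in Cy3 arrays, the targets 0.090 and -0.016, and the relay genes -0.046 and -0.062. With the Cy3 arrays turned the medians were -0.0078 for ligands and receptors, 0.053 for targets and -0.020 for relay genes. Leaving out 1 mouse at a time gave medians of -0.020 to 0.13 for the targets, with the sign turned without Dll1 mouse 4.

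All 8 measured hepatocyte markers of 14 listed had a difference above 0 in the mean of both dyes, with a median of 0.12, and none passed. In the Cy5 arrays 4 of the 8 lay above 0 and in the Cy3 arrays 6, and 2 had one sign in both dyes. The median was 0.060 without wt mouse 1, and with the Cy3 arrays turned it was -0.14, in the other direction. Their median ratio was -0.073 in Dll1 clones and -0.25 in wt clones. Alb, serum albumin, had ratios of -0.24, 0.026, -0.11 and 0.19 in the 4 Dll1 clones, against -0.62, -0.26, -0.34 and -0.094 in the 4 wt clones. The groups overlapped, and the difference was 0.29 (SE 0.12, 95% interval 0.026 to 0.56, limma adjusted p = 0.934), at 0.24 in the Cy5 arrays and 0.35 in the Cy3 arrays. The mean over the 17 plasma protein genes was -0.24, 0.010, -0.18 and -0.042 in the Dll1 clones, against -0.30, -0.15, -0.27 and -0.085 in the wt clones, so the ranges of the cohorts overlapped. Of these 17 genes 14 lay above 0, with a median of 0.084, and the median was 0.13 without wt mouse 4 and 0.054 without Dll1 mouse 2. Of the 17, 6 had one sign in both dyes. Alb, Ttr, Apoa1, Trf and Fgb stood in both this list and the hepatocyte markers.

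Fga, the fibrinogen alpha chain, had ratios of -0.35, -0.13, -0.097 and -0.40 in the 4 Dll1 clones, against -0.61, -0.49, -0.58 and -0.31 in the 4 wt clones. All 8 clones were below their pools, and the wt clones were lower on average, with a difference of 0.25 (SE 0.091, 95% interval 0.047 to 0.45, limma adjusted p = 0.934), at 0.019 in the Cy5 arrays and 0.48 in the Cy3 arrays. The medians of the lists depended on the dye: the hepatocyte markers had a median of -0.0079 in the Cy5 arrays and 0.27 in the Cy3 arrays, and the plasma proteins -0.061 and 0.21. With the Cy3 arrays turned the median of the plasma proteins was -0.14.

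Markers of other cell types had medians within 0.05 of 0 in the mean of both dyes, where for several lists the dyes opposed each other. The median difference was 0.032 for 11 endothelial, 0.047 for 12 Kupffer and myeloid, 0.022 for 11 stellate cell and matrix and -0.0049 for 11 cholangiocyte markers, and it was 0.0098 for 13 lymphocyte, -0.023 for 13 red cell and -0.014 for 7 pancreas and gut markers. The endothelial markers had medians of 0.13 in Cy5 and -0.17 in Cy3 arrays, the lymphocyte markers of 0.18 and -0.17, the pancreas and gut markers of 0.16 and -0.054, and the Kupffer and myeloid markers of -0.012 and 0.098. The medians by dye were 0.037 and 0.019 for stellate cell and matrix, -0.023 and 0.021 for cholangiocyte and -0.068 and 0 for red cell markers. With the Cy3 arrays turned the median was 0.16 for lymphocyte, 0.11 for pancreas and gut and 0.098 for endothelial markers. Of all 33 lists, 20 had medians of opposite sign in the 2 dyes. Col3a1, a fibrillar collagen chain, had ratios of -0.0085, 0.32, 0.52 and 0.20 in the 4 Dll1 clones, against 0.13, -0.23, -0.15 and -0.12 in the 4 wt clones, and the groups overlapped through wt mouse 1 and Dll1 mouse 1. Its difference was 0.35 (SE 0.11, 95% interval 0.098 to 0.60, limma adjusted p = 0.934), at 0.039 in the Cy5 arrays and 0.66 in the Cy3 arrays. Egfl7, a protein secreted by endothelium, differed by 0.18 ± 0.068, and Cd28, a costimulatory receptor of T cells, by 0.16 ± 0.062 (SE). S100a8, a calcium-binding protein of neutrophils, stood at 0.13 ± 0.087 and the pancreatic enzyme Cpa1 at -0.096 ± 0.077 (SE). The part of cell composition in the differences above was not tested.

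**Figure D5:**
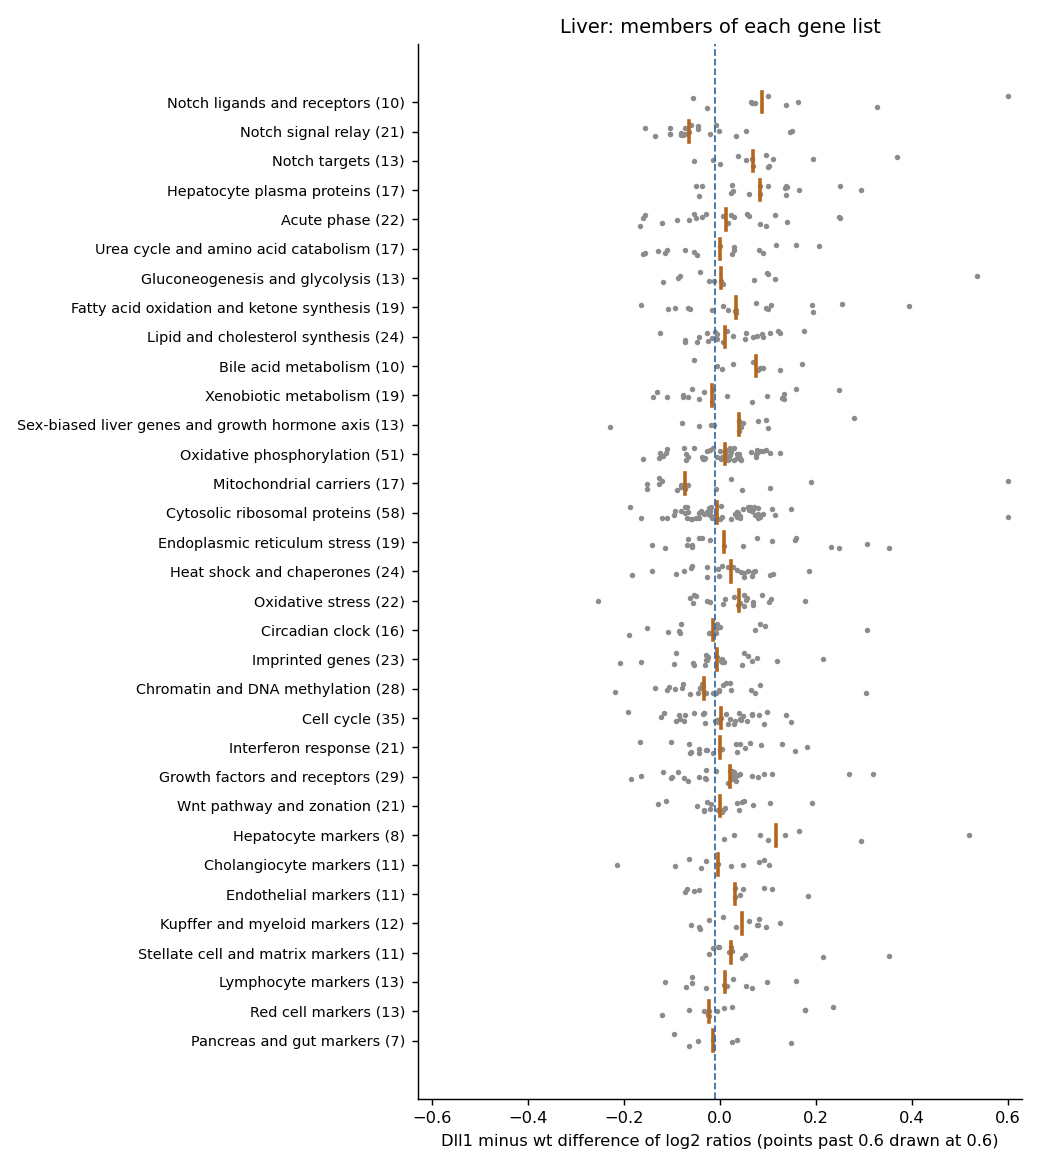
Dll1 minus wt difference of log2 ratios for the measured members (grey points) of each gene list, with the number measured in brackets, the list median as a brown bar and the median of all 16900 features as a dashed blue line. All values are means of both dyes. Most medians lie within 0.05 of 0, and the hepatocyte markers, at 0.12, and the mitochondrial carriers, at -0.072, are the ends of the range.

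The genes of metabolism had differences in both directions, and none passed. Of 19 fatty acid oxidation and ketone genes 13 lay above 0 (median 0.033, and -0.024 in Cy5 and 0.079 in Cy3 arrays), among them Cpt2, which completes fatty acid import into mitochondria, at 0.25 ± 0.095, and Acads, the short-chain acyl-CoA dehydrogenase, at 0.19 ± 0.073 (SE). Acacb, the acetyl-CoA carboxylase of the mitochondrial surface, stood at 0.17 ± 0.063 and Sc5d, a late enzyme of cholesterol synthesis, at -0.13 ± 0.056 (SE). In tyrosine breakdown Fah stood at -0.16 ± 0.062 and Hgd, an earlier step, at 0.16 ± 0.065 (SE). Amacr, a racemase of bile acid synthesis, had the smallest p of 10 bile acid genes, at 0.12 ± 0.067 (SE). Of the 10, 8 lay above 0 with a median of 0.074, but the medians were -0.22 in Cy5 and 0.33 in Cy3 arrays, and -0.30 with the Cy3 arrays turned. Nr1i3, the xenobiotic receptor CAR, stood at -0.14 ± 0.049 and the conjugating enzyme Gstp1 at 0.25 ± 0.11 (SE). Gapdh differed by 0.54 ± 0.25 (SE) with 1 Dll1 mouse missing and a wt spread of -1.09 to 0.18. The 17 genes of the urea cycle and amino acid breakdown had a median of 0.00088, at 0.052 in Cy5 and -0.065 in Cy3 arrays and at 0.16 with the Cy3 arrays turned. The 13 genes of gluconeogenesis and glycolysis had a median of 0.0022, at 0.092 in Cy5 and -0.069 in Cy3 arrays and at 0.13 with the Cy3 arrays turned, and 0 of the 13 had one sign in both dyes.

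Of the 17 measured mitochondrial carriers, 5 lay above 0, Slc25a3 among them, and the median was -0.072, or -0.035 without wt mouse 4. Slc25a39, linked to glutathione import, stood at 0.19 ± 0.070, the pyrimidine carrier Slc25a33 at -0.15 ± 0.061 and the citrate carrier Slc25a1 at -0.15 ± 0.062 (SE). The 2 probes of Slc25a33 gave -0.033 and -0.27. By dye Slc25a33 stood at 0.13 in the Cy5 arrays and -0.44 in the Cy3 arrays, and Slc25a1 at 0.15 and -0.46. Slc25a39 had one sign in both dyes. The list medians were 0.074 in Cy5 and 0.073 in Cy3 arrays, opposite in sign to the median of the mouse means, and 3 of the 17 members had one sign in both dyes. The 51 subunits of oxidative phosphorylation had a median of 0.011, at -0.037 in Cy5 and 0.039 in Cy3 arrays, and the smallest p was that of Atp5d, at -0.16 ± 0.077 (SE). The 58 cytosolic ribosomal proteins had a median of -0.0053, at -0.086 in Cy5 and 0.045 in Cy3 arrays, and the smallest p was that of Rpl28, at -0.16 ± 0.068 (SE).

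The stress genes were split in direction. Of 19 ER stress genes 10 lay above 0, and the median was 0.0081, at 0.11 in Cy5 and 0.033 in Cy3 arrays. Dnajc3, whose promoter holds the same element as that of Hspa5, differed by 0.16 ± 0.070, and Ddit3, a transcription factor induced late in ER stress, by -0.11 ± 0.049 (SE). Both had opposite signs in the dyes, Dnajc3 at 0.35 in the Cy5 arrays and -0.043 in the Cy3 arrays and Ddit3 at 0.071 in the Cy5 arrays and -0.30 in the Cy3 arrays. Of the 6 measured genes with the element, 3 lay above 0. Hspa1a, the inducible cytosolic Hsp70, had ratios of -0.096, -0.24, -0.16 and -0.17 in the 4 Dll1 clones, against 0.030, 0.070, -0.052 and 0.017 in the 4 wt clones, with no overlap. Its difference was -0.18 (SE 0.056, 95% interval -0.31 to -0.060, limma adjusted p = 0.934), and it stood at -0.38 in the Cy5 arrays and 0.012 in the Cy3 arrays. Prdx2, a peroxiredoxin abundant in red cells, stood at 0.18 ± 0.075 (SE).

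Genes of growth, imprinting, chromatin and clock had medians within 0.05 of 0 in the mean of both dyes. By dye the medians were 0.14 in Cy5 and -0.10 in Cy3 arrays for 29 growth factors and receptors, 0.033 and -0.10 for the imprinted genes, -0.013 and -0.052 for 28 chromatin genes and -0.033 and 0 for 16 clock genes. Of 23 imprinted genes 11 lay above 0, and Phlda2, a maternally expressed gene that restrains placental growth, differed by -0.21 ± 0.071 and Ascl2 by -0.16 ± 0.070 (SE). Igfbp3, a carrier of insulin-like growth factors, had ratios of -0.23, -0.13, -0.059 and -0.36 in the 4 Dll1 clones, against 0.14, 0.032, -0.027 and -0.0040 in the 4 wt clones. The groups did not overlap, and its difference was -0.23 (SE 0.074, 95% interval -0.39 to -0.064, limma adjusted p = 0.934), at -0.15 in the Cy5 arrays and -0.31 in the Cy3 arrays. The receptors Tgfbr2 and Pdgfra stood at -0.19 ± 0.075 and 0.27 ± 0.12, and the clock repressor Bhlhe41 at -0.19 ± 0.062 (SE). The value of Tgfbr2 came from 1 probe, and another probe of the gene, not used, stood at 0.11, opposite in sign. By dye Tgfbr2 had opposite signs too, at 0.605 in the Cy5 arrays and -0.32 in the Cy3 arrays, so its direction is not settled. Dhx58, a regulator of viral RNA sensing, had the smallest p of 21 interferon genes, at -0.17 ± 0.058, and Lcn2, an iron-binding acute phase protein, stood at -0.17 ± 0.060 (SE). Il6ra, the receptor for interleukin 6, stood at 0.25 ± 0.11. Dnmt3l, a cofactor of DNA methylation, stood at -0.14 ± 0.070, the centromere histone Cenpa at -0.12 ± 0.067 and Lgr5, a Wnt-linked receptor of pericentral hepatocytes, at -0.11 ± 0.066 (SE). By dye, Dnmt3l stood at 0.52 in the Cy5 arrays and -0.79 in the Cy3 arrays, and Ascl2 at 0.26 and -0.58. Lgr5 stood at 0.19 and -0.41, Lcn2 at -0.46 and 0.13, Cenpa at -0.275 and 0.027 and Bhlhe41 at -0.38 and 0.002. The directions of these genes are not settled either. Phlda2, Pdgfra, Dhx58 and Il6ra had one sign in both dyes.

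For some genes the mean of both cohorts lay further from 0 than their difference. In the mean of both cohorts against their pools 29 of 16900 features passed (0.172%), all lower than the pools. Leaving out 1 mouse at a time gave 12 (without wt mouse 3) to 60 (without Dll1 mouse 2), and with arrays centred and scaled to one spread there were 9. With Cy5 arrays alone 3451 passed (1440 higher, 2011 lower), with Cy3 arrays alone 5354 (2379 higher, 2975 lower), and with the Cy3 arrays turned 7250 (3892 higher, 3358 lower). Whether a value below 0 in both dyes is a clone below its pool or a difference between dyes cannot be told apart here, since it rests on the Cy3 arrays having been turned already. The 8 genes with the smallest p had means of both cohorts from -0.65 to -0.21 in Cy5 and from -0.55 to -0.17 in Cy3 arrays, and from -0.24 to 0.16 with the Cy3 arrays turned. Fbxo41, an F-box protein gene, had ratios of -0.74, -0.49, -0.52 and -0.39 in the 4 Dll1 clones, against -0.69, -0.36, -0.57 and -0.67 in the 4 wt clones. Both cohorts lay far below 0 in all mice, and the difference was 0.043 (SE 0.094, 95% interval -0.17 to 0.25, limma adjusted p = 0.971), at 0.32 in the Cy5 arrays and -0.24 in the Cy3 arrays. Cth, which makes cysteine from cystathionine, likewise differed by only 0.029 ± 0.096 (SE), with means of -0.39 ± 0.21 in Dll1 clones and -0.42 ± 0.066 in wt clones (SD, n = 4 mice each). In the mean of both dyes Fgl1, a fibrinogen-like protein of hepatocytes, was the single one of these 8 genes lower in Dll1 clones, at -0.16 ± 0.074 (SE). It stood at -0.43 in the Cy5 arrays and 0.12 in the Cy3 arrays. The haemoglobin chain Hba-a1 differed by 0.23 ± 0.10 and the nuclear pore gene Nup155 by 0.22 ± 0.098 (SE), the second at 0.71 in the Cy5 arrays and -0.28 in the Cy3 arrays. Fgb, the fibrinogen beta chain, stood at 0.083 ± 0.081 and Ucma, a secreted cartilage protein, at 0.12 ± 0.10 (SE). By dye Fgb stood at -0.099 in the Cy5 arrays and 0.26 in the Cy3 arrays. Ucma stood at 0.36 and -0.13 and Cth at -0.035 and 0.0925, while Hba-a1 and Fga had one sign in both dyes.

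Several of the genes that varied most between mice had 1 extreme animal. B3gat1, a glucuronosyltransferase of the nervous system, stood at 2.37 in Dll1 mouse 4 and between -0.10 and 0.12 in the other Dll1 clones, against -0.11 to 0.09 in the wt clones. Pkp1, a plakophilin of desmosomes, stood at 2.20 in Dll1 mouse 1, with 0.37 as the next Dll1 value, against -0.93 to 0.26 in the wt clones. Lamb1, a laminin chain, stood at -2.17 in Dll1 mouse 2, against -0.54 to -0.30 in the wt clones. In wt clones Bace2, a protease, spread up to 2.90, Pank3, a kinase of coenzyme A synthesis, spread from -2.00 to 0.86, and Cul4b, a ubiquitin ligase scaffold, from -0.78 to 1.99. Rpl19 and Rerg each had values in 3 mice per cohort and spread by more than 1 log2 unit in both cohorts, and Cyp21a1, a steroid hydroxylase, spread from -1.57 to 1.33 in Dll1 clones. None of these differences passed.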

How the data were processed

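Each array column of the deposited table holds a log2 ratio per probe, likely of clone over pool by the word order of the titles per the labels. Neither normalization nor image processing is stated in the labels. Ratios above 9 in size, 326 in the liver arrays, are constants of spots without a ratio and were set to missing. The 2 arrays of a mouse were averaged as deposited. Probes needed both arrays in at least 3 of 4 mice of each cohort, and probes of 1 gene were averaged, using those complete in all 8 mice where there were any. Rows were named through the platform table (12771 probes with 1 gene symbol each and none with several, of 20794 rows) after a shift of 11 rows found from the data. Unnamed rows stayed as their own features. Cohorts were compared with limma 3.58.1 in R 4.3.3 (lmFit and eBayes on 8 mice, two-sided, Benjamini-Hochberg adjusted over all 16900 features, threshold 0.05), checked on simulated data. Log2 differences are Dll1 minus wt. A mouse was the replicate, and mouse numbers are names in the order of the arrays.

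The members, the 33 gene lists and the tests were chosen with earlier results of these data known. Named were Dll1, the 10 named genes with the smallest p in each direction, up to 4 members of each list with an unadjusted p under 0.05 (or the one with the smallest p), all measured Notch ligands, receptors and targets, 8 genes with the smallest p in the mean of both cohorts and the 5 with the largest SD in each cohort. Alternatives covered dye, constants, scaling, probes, names, filter, blocks and each mouse left out. The correction for row order was added after seeing the data. Scan dates and slides were not analysed here.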

Additional observations from a re-analysis of the deposited data

Results flagged for a closer look

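Single mice stood apart from the other 3 of their cohort in 13 of the 185 groups of 4 mice examined for the 98 genes named here. In groups not chosen by their values such a gap comes in about 1 of 20, or about 9.25 of 185. The genes here were chosen from these data, some by p and some by their SD between mice. That rate therefore gives no test of the 13 groups. Among Dll1 clones these were Dll1 at -0.51, Slc6a4 at -0.18 and Sc5d at -0.25 in mouse 3, Trpv2 at -0.020 and Hgd at -0.097 in mouse 1, and Lcn2 at -0.20 and B3gat1 at 2.37 in mouse 4. Among wt clones these were Hgd at -0.013 and Acads at -0.32 in mouse 1, Slc25a33 at 0.15 in mouse 2, and Acacb at -0.23, Dhx58 at -0.019 and Cth at -0.52 in mouse 3.

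For 9 leading genes the dye means put every Dll1 clone on one side of its pool and every wt clone on the other. The difference, Dll1 minus wt, was 0.34 for Renbp, 0.32 for Fgf2 and 0.30 for Aspn, and it was -0.23 for Lce1i, -0.26 for P4ha2, -0.27 for Tsfm, -0.19 for Trpv2, -0.21 for Anapc4 and -0.25 for Slc6a4. These genes were chosen by their p in the same comparison, and none of the 9 passed limma's adjusted test. By dye, P4ha2 had opposite signs, at 0.31 in the Cy5 arrays and -0.83 in the Cy3 arrays. Slc6a4, at 0.12 and -0.61, and Trpv2, at -0.44 and 0.056, had opposite signs too. The others had one sign in both dyes.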

How the results depend on the processing

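The count of 0 features passing held under every alternative that kept both dyes as deposited, with 463 to 1030 features at an unadjusted p under 0.05 when 1 mouse was left out (463 without wt mouse 2, against 824). With the Cy3 arrays turned in sign 7103 passed and 6374 features separated the cohorts, with Cy5 alone 3162 and 4199, with Cy3 alone 3916 and 4479, and with Cy3 turned after the row-order correction 3923 and 4588. The cause was not tested. The correction alone left 0 passing. Leaving out 1 mouse raised the count of separated features to 774 to 1222, as 7 mice separate more easily than 8. In the mean of both cohorts, where 29 features passed, 7250 did with the Cy3 arrays turned, 3451 with Cy5 alone, 5354 with Cy3 alone and 4183 with Cy3 turned after the row-order correction. There were 19 with constants kept, with 1 array of a mouse enough or with arrays centred, 9 with arrays also scaled, 46 with each probe on its own, and 12 to 60 when 1 mouse was left out. These alternatives for the mean were chosen after seeing the data. With Cy3 turned, Renbp (-0.11), Slc25a3 (-0.33), Hspa5 (-0.094), Ift20 (-0.13), Zcchc7 (-0.066), Lce1i (0.028), P4ha2 (0.57), Tsfm (0.13), Pitpnb (0.38), Anapc4 (0.098) and Slc6a4 (0.37) changed sign, and with the row-order correction too Renbp (-0.17), Slc25a3 (-0.20), Fgf2 (-0.047), Zcchc7 (-0.12), Lce1i (0.18), P4ha2 (0.48), Tsfm (0.028) and Pitpnb (0.098). In Cy5 alone P4ha2 (0.31), Pitpnb (0.15) and Slc6a4 (0.12) did, and in Cy3 alone Myh11 (-0.014), Trpv2 (0.056) and Glis3 (0.14). With the names as given, which puts other probes under each name, Dll1 (-0.11), Renbp (-0.0066), Slc25a3 (-0.14), Fgf2 (-0.019), Hspa5 (-0.054), Ptpn5 (-0.017), Actb (-0.096), Ift20 (-0.078), Myh11 (-0.0050), Inpp5f (0.029), Anapc4 (0.039) and Glis3 (0.017) changed sign. With all 4 groups in the fit, where 1 of its 2 probes was used, Ptpn5 stood at -0.051. No other alternative turned a leading gene. The adjusted p of Dll1 ranged from 0.372 to 1. Mouse numbers did not pair the cohorts (deviations of same-numbered mice correlated at 0.089, 0.014, -0.028 and 0.14), and the fit with the replicate block gave 0 passing features. Signal over background was not analysed here.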
